A study of Mus musculus with 9 samples.

Results

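Blood vessels of the mouse heart are kept and grown by 3 ligand and receptor systems, and the genes described here are their core: the VEGF ligands Vegfa, Vegfb and Vegfc with the receptors Flt1 and Kdr, the angiopoietins Angpt1 and Angpt2 with their receptor Tek, and the apelin ligand Apln with its receptor Aplnr. They were taken by name, as 10 genes of these pathways. The choice was made with earlier results of these data known, so the shares that passed below are descriptions. Of the 10, 9 were found among the 22851 genes of the deposited count table, and Angpt2 was not analysed here. Heart RNA of male C57BL/6 mice, aged 6 to 8 weeks at the start, was sequenced in 9 libraries, 3 per group. CK mice were controls injected with citrate buffer. DCM mice received streptozotocin at 180 mg/kg, which destroys insulin-producing cells, and were diabetic for 12 weeks. SPM mice received the same streptozotocin and also spermine, a polyamine, at 1 mg/kg. Spermine was given for 2 weeks before streptozotocin and through the 12 weeks after it. The SPM and DCM groups thus share the streptozotocin, and whether their diabetes was equally severe was not tested. The study's methods describe both single mice and mixed hearts as the source of a library, and which holds is not settled, so the p-values measure the spread between libraries.

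The libraries held between 29901300 and 39718680 counts, and the 9 genes between 139 counts (Apln, SPM replicate 1) and 15026 counts (Kdr, CK replicate 2) in a library. The tissue label is heart, whereas the extraction text deposited with the libraries speaks of retinas. All 6 counted retina markers were under 1 normalized CPM (counts scaled to the library total times a TMM factor for composition; CPM below) in every library, and 7 markers of ventricular muscle summed to between 41073 and 55139 CPM. The share of mitochondrial transcripts was 13.7% to 16.2% for CK, 15.5% to 18.9% for DCM, and higher for SPM, at 21.0% to 21.1%. The second SPM library stood apart in one respect: it lay between SPM replicates 1 and 3 for 68.5% of 13045 genes, against 14.6% to 40.6% for the other 8 libraries, and of 2656 genes at 0 in SPM replicates 1 and 3 it had a count for 30, against 485 to 1162 genes for the other libraries. Whether it is an independent library is therefore doubtful, and test results that rest on it are given with and without it. For each of the 9 genes its value lay between those of SPM replicates 1 and 3, as did each summed marker level below, so the SPM ranges are the same without it.

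VEGF ligands are secreted by muscle and stromal cells and act on receptor tyrosine kinases of the endothelium, where Kdr carries most of the growth signal and Flt1 binds ligand tightly and can act as a decoy. Angiopoietin 1 activates the endothelial receptor encoded by Tek and holds vessels in a quiescent state, whereas angiopoietin 2 is mostly an antagonist. Apelin is a peptide that endothelial cells at the front of growing vessels secrete, and its G-protein-coupled receptor, encoded by Aplnr, is found on endothelium and is also known for effects on the contraction of heart muscle.

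RefSeq promoters were found for 7 of the 10 genes, by symbol, on assembly GRCm38.p6. Those of Apln (chrX:48034854-48035103, minus strand), Tek (chr4:94739039-94739288, plus strand) and Vegfa (chr17:46032378-46032627, minus strand) are shown because these genes stand for the 3 systems and for 3 patterns described below. Each is the 250 bases before the transcript's start, 5′ to 3′, and capitals mark the GC box, the letters GGGCGG on either strand, which SP family factors bind.
Apln: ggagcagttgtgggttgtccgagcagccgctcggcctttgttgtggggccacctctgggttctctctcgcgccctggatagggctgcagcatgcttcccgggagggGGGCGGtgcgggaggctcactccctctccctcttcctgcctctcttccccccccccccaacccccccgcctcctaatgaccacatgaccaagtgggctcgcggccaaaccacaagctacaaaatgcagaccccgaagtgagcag
Tek: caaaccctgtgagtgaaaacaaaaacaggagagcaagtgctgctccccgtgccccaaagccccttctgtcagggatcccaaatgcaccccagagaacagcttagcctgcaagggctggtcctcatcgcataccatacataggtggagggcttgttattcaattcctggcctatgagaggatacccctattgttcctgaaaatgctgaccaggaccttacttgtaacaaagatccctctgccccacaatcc
Vegfa: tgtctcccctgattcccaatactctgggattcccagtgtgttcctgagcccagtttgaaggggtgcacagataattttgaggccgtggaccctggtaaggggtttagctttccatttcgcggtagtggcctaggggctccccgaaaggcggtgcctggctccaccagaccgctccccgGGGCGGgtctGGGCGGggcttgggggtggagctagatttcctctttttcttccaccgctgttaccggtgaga
A GC box was found in 6 of the 7 promoters, against 32.7% of 32851 promoters of the same length, and Tek was the one without it. Among the 6 is Vegfc, whose RefSeq start lay 74 bases from the gene start, and the bases after it were not found in its transcripts. The letters ACGTG, one form of the core that hypoxia-inducible factors bind, were in 0 of the 7, against 16.6% of all promoters, on either strand. The other form, GCGTG, was not counted over all promoters, and it is present in those of Vegfb, Flt1 and Kdr. The letters TATAAA were in 1 of the 7, that of Flt1, against 12.4% of all promoters. These matches describe the letters in this window and say nothing of binding.

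Levels can be set against each other between genes as FPKM, which divides counts by gene length and library total. In CK hearts, the ligand gene Vegfb was the highest at 202.2 ± 11.0 FPKM (SD, n = 3). It was followed by the receptor genes and Vegfa, with Kdr at 72.7 ± 6.31, Vegfa at 47.5 ± 4.53, Flt1 at 33.9 ± 1.22, Tek at 31.6 ± 0.77 and Aplnr at 29.4 ± 7.57 FPKM. Vegfc, at 6.96 ± 0.42, Apln, at 5.72 ± 0.25, and Angpt1, at 4.42 ± 1.17 FPKM, were the lowest. Of neighbours in this order, Tek and Aplnr overlapped between libraries and the other pairs did not. In DCM hearts, Aplnr had dropped to 5.19 ± 1.33 FPKM, beside Vegfc at 4.96 ± 0.38 and Angpt1 at 3.83 ± 1.00, where neighbouring values overlapped, and Apln was last at 2.02 ± 0.12 FPKM. In SPM hearts, Angpt1 stood above Vegfc, at 6.72 ± 0.25 against 4.16 ± 0.80 FPKM, and Apln was again last, at 1.86 ± 0.47. Vegfb was first in all 3 groups and Kdr second by its mean, at 217.5 ± 24.0 and 58.1 ± 2.52 FPKM in DCM and at 171.9 ± 2.20 and 58.6 ± 4.88 FPKM in SPM. In SPM the libraries of Kdr overlapped with those of Vegfa, at 50.1 ± 7.87 FPKM, and in SPM replicate 1 Vegfa was the higher of both. In DCM, Vegfa and Flt1 also overlapped. Without SPM replicate 2 the SPM means were 6.76 FPKM for Angpt1, 4.14 for Vegfc, 3.51 for Aplnr and 1.74 for Apln.

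**Figure D1:**
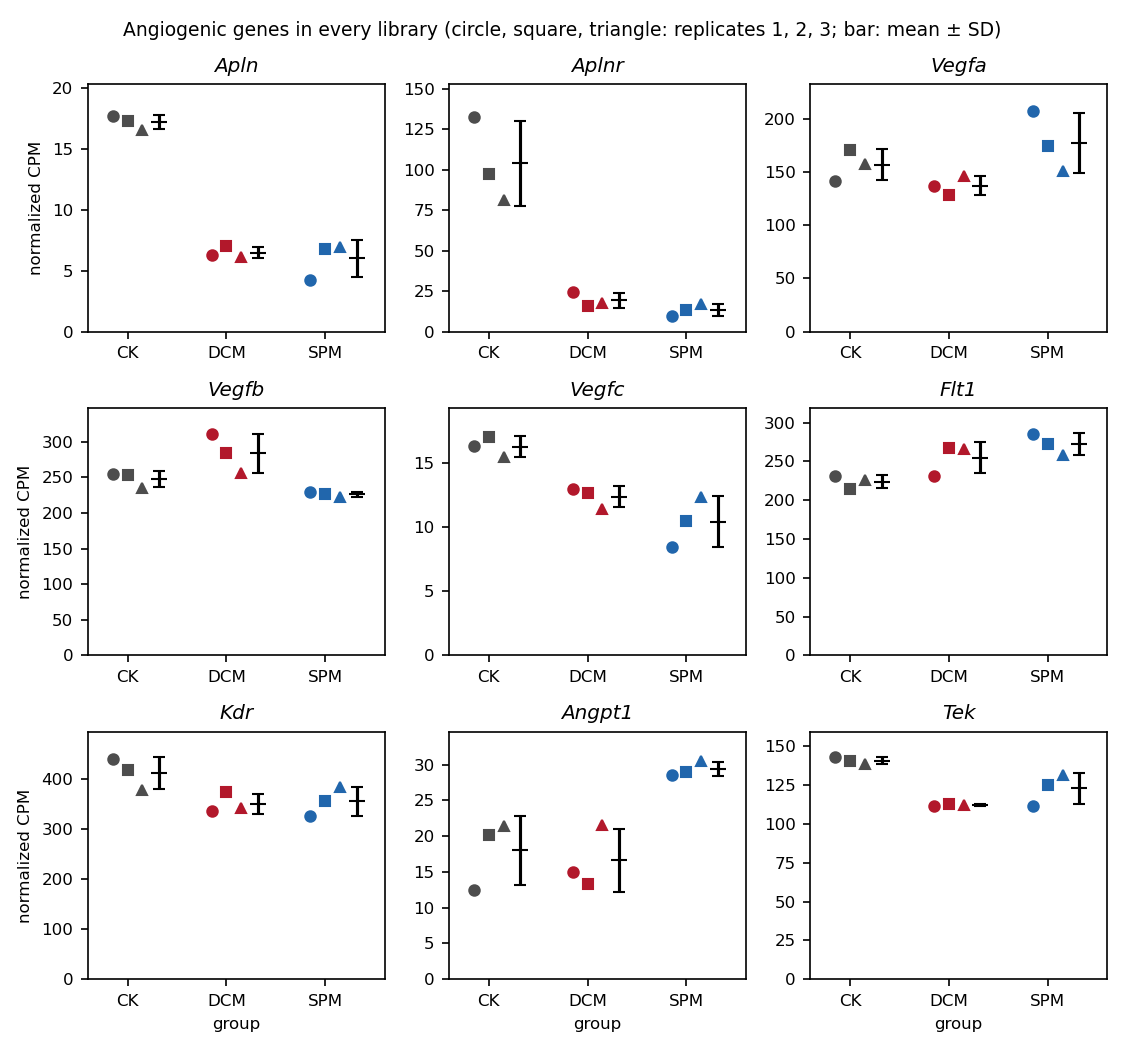
Normalized CPM (vertical axis, from 0, on its own scale for each gene) of the 9 genes in the CK, DCM and SPM libraries; points are libraries and the bar beside them is the mean ± SD of 3. Apln and Aplnr are high in CK and low in all DCM and SPM libraries, and Angpt1 is high in the 3 SPM libraries.

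The first comparison asked how these genes differed from controls 12 weeks after streptozotocin. Effects of the drug itself and of diabetes cannot be told apart in this design. The apelin pair fell most: Aplnr dropped 5.30-fold and Apln 2.66-fold in DCM compared to CK. Tek fell 1.26-fold and Vegfc 1.32-fold, and no gene of the 9 rose. A gene was taken to pass the test when its adjusted p, from edgeR over all genes, was under 0.05, and called a differentially expressed gene (DEG) when it also changed at least 1.5-fold. By these rules 4 of the 9 genes passed, against 10.4% of the 14402 genes tested, and 2 were DEGs, against 4.34%. In 7 of the 9 the libraries of the 2 groups did not overlap, against 29.3% of all genes. The median log2 fold change of the 9 was -0.23, and that of all genes tested was 0.00 to 2 decimals (-0.0025).

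Aplnr (ENSMUSG00000044338) lies at chr2:85136225-85139923 on the plus strand of GRCm38. Its normalized CPM was 132.6, 97.7 and 81.5 in CK and 24.7, 16.0 and 17.8 in DCM. Every DCM library was far below the lowest CK library, and CK replicate 1 was the highest of all 9. The log2 fold change was -2.41 (SE 0.18, 95% interval -2.80 to -2.01, adjusted p = 1.08e-05), which ranked 15 from the lowest of 14402 genes. Apln (ENSMUSG00000037010), at chrX:48025146-48034853 on the minus strand, had 17.7, 17.4 and 16.6 CPM in CK and 6.31, 7.01 and 6.16 CPM in DCM. Both groups were tight and did not overlap, with a log2 fold change of -1.41 (SE 0.11, adjusted p = 1.82e-05), rank 135 from the lowest. In whole tissue, fewer cells of a type and less RNA per cell cannot be told apart.

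Among the VEGF ligands, Vegfc, which acts through the receptor gene Flt4 and is best known for lymphatic growth, had 16.4, 17.1 and 15.5 CPM in CK and 13.0, 12.7 and 11.5 CPM in DCM. Its groups did not overlap and its log2 fold change was -0.40 (SE 0.11, adjusted p = 0.0313). The call was narrow: it was lost when any one of 5 of the 6 libraries was left out (all but CK replicate 3), with adjusted p of up to 0.126. It was also lost with all 9 libraries in one edgeR fit (adjusted p = 0.0616) and with a replicate block (0.0504). Vegfa, the main growth signal for blood vessels, had 142.1, 171.0 and 158.1 CPM in CK and 137.1, 129.0 and 146.3 CPM in DCM. The groups overlapped, and the difference of -0.19 on the log2 scale did not pass (95% interval -0.37 to -0.01, adjusted p = 0.175). Vegfb, a ligand of Flt1 that heart muscle makes in large amounts, had 255.0, 253.0 and 235.5 CPM in CK and 310.5, 284.8 and 255.8 CPM in DCM. The DCM libraries were all above the highest CK library, by under 1 CPM for the nearest pair, and the difference of 0.20 did not pass (adjusted p = 0.164).

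The receptor gene Tek was even within both groups, with 143.2, 140.4 and 138.9 CPM in CK and 111.5, 112.7 and 112.2 CPM in DCM. Each group spanned under 5 CPM, and the log2 fold change of -0.33 passed (SE 0.064, adjusted p = 0.00653) and passed again without any one of the 6 libraries. Kdr had 439.5, 419.4 and 377.4 CPM in CK and 337.0, 373.6 and 341.5 CPM in DCM. All DCM libraries were below all CK libraries, by little at the nearest pair, and the difference of -0.23 did not pass (95% interval -0.41 to -0.06, adjusted p = 0.0913). This call depended on the tool, since it passed in DESeq2, the tool that the study's methods name (adjusted p = 0.0454), and with limma on log2 FPKM (0.0276 and 0.0294). Flt1 differed in the other direction, at 231.2, 214.1 and 226.6 CPM in CK and 231.4, 266.7 and 266.6 CPM in DCM. The groups lay apart by under 1 CPM at the nearest pair, and the difference of 0.19 did not pass either (adjusted p = 0.158). Angpt1 overlapped throughout, at 12.5, 20.2 and 21.5 CPM in CK and 14.9, 13.4 and 21.6 CPM in DCM, and its 95% interval of -0.56 to 0.33 on the log2 scale leaves a change of either sign possible (adjusted p = 0.790). Of its 5205 exon bases, 737 are shared with the antisense gene Gm17473, which had a mean of 0.390 CPM, and none of the other 8 genes shares exon bases with another gene.

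**Figure D2:**
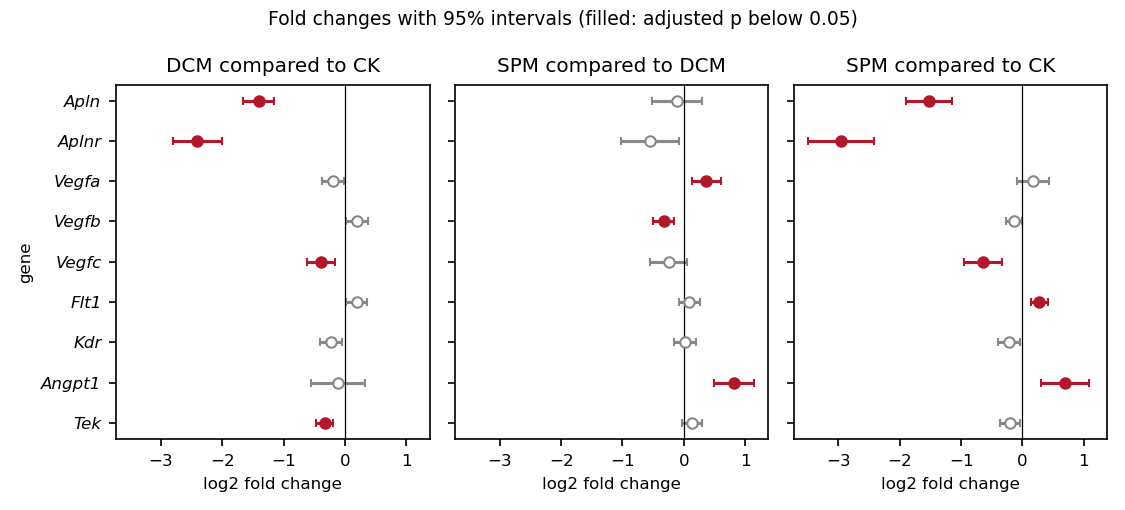
Log2 fold change (horizontal axis) of the 9 genes in the 3 comparisons, with 95% intervals; filled points have an adjusted p under 0.05. Aplnr and Apln lie far to the left against CK in both diabetic groups, and near or closer to 0 in SPM compared to DCM.

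Since Aplnr, Apln, Tek, Kdr and Flt1 are expressed by endothelium, they were set beside markers of that cell type. Of 11 endothelial markers counted, none was at 0 in all libraries. Vwf, the clotting factor that endothelium stores, rose by 0.79 (adjusted p = 0.00187), Icam2, an adhesion molecule, fell by 0.53 and Tie1, the partner receptor of Tek, fell by 0.34, while 8 did not pass. The median log2 fold change of the 11 was -0.08. The 3 most abundant, Cdh5, Pecam1 and Eng, were among the 8, at -0.08, 0.16 and 0.09. Summed, the markers had 2248 to 2599 CPM in CK, 2290 to 2643 CPM in DCM and 2077 to 2316 CPM in SPM, so that the CK and DCM ranges overlapped. As a share of this sum, Aplnr was 5.10%, 4.32% and 3.63% in CK and 0.936%, 0.614% and 0.776% in DCM. The mean share in DCM was 0.178 of that in CK, beside the 5.30-fold fall of Aplnr over all genes. The sum includes Vwf, which had 262.7 ± 13.1 CPM in CK and 454.1 ± 98.2 CPM in DCM, so all shares in DCM are set against a sum that holds this rise. Apln went from 0.730% ± 0.044 to 0.259% ± 0.017 of the sum, Tek from 5.97% ± 0.40 to 4.48% ± 0.37 and Kdr from 17.4% ± 1.00 to 14.0% ± 1.12, and Flt1 was 9.49% ± 0.59 in CK and 10.2% ± 1.44 in DCM (SD, n = 3).

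**Figure D3:**
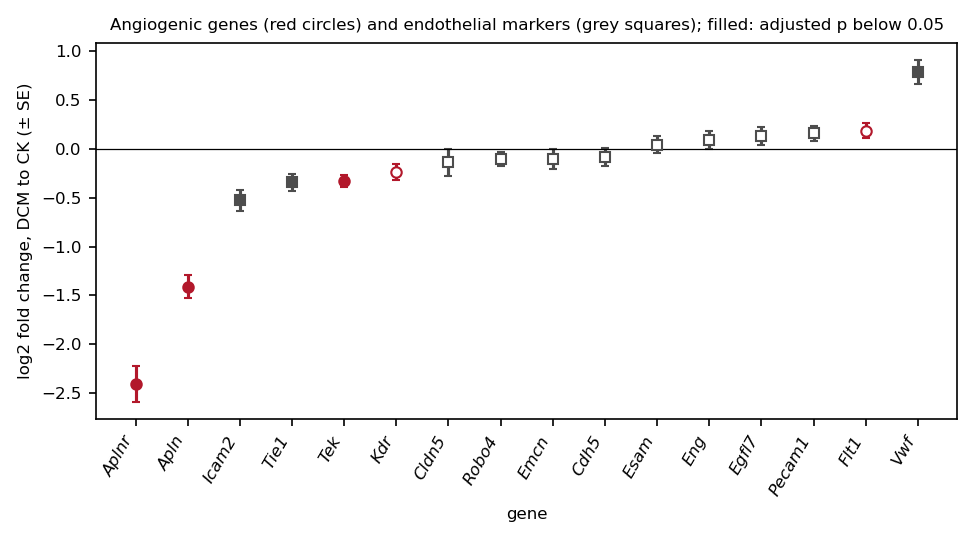
Log2 fold change of DCM to CK (vertical axis, ± SE) for 5 of the angiogenic genes (red circles) and 11 endothelial markers (grey squares), ordered by value; filled symbols have an adjusted p under 0.05. Aplnr and Apln, at -2.41 and -1.41, lie below every endothelial marker, the lowest of which is Icam2 at -0.53.

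Markers of other cells also differed between these groups, beside 10.4% of all genes that passed in DCM compared to CK. Of 8 fibroblast markers, 6 fell in DCM compared to CK and none rose, among them the collagen genes Col3a1, by 1.54, and Col1a1, by 1.06 on the log2 scale. Summed, they had 2057 to 2160 CPM in CK, 1399 to 1493 CPM in DCM and 1635 to 1715 CPM in SPM. The most abundant marker, Dcn, had group means of 795.2, 773.8 and 992.1 CPM in CK, DCM and SPM. It did not pass in DCM compared to CK (-0.04). The means of Col3a1 were 495.8, 170.0 and 175.3 CPM, and those of Col1a2 308.4, 175.4 and 163.3 CPM. Of 9 macrophage markers, 6 fell, and their sum was 759 to 1014 CPM in CK, 604 to 726 CPM in DCM and 724 to 1263 CPM in SPM. Of 7 atrial muscle markers, 3 fell, with sums of 1243 to 1666 CPM in CK, 697 to 1223 CPM in DCM and 1198 to 1930 CPM in SPM. Of 5 lymphatic endothelial markers, 3 rose, namely Reln by 1.01, Lyve1 by 0.90 and Mmrn1 by 0.81, while Vegfc fell. The list summed to 161 to 180 CPM in CK and 210 to 225 CPM in DCM. Its most abundant markers, Prox1 and Flt4, did not pass. Prox1 had means of 79.5 CPM in CK and 81.0 CPM in DCM, and Flt4 of 48.2 and 53.4 CPM. None of 8 pericyte, 5 smooth muscle, 7 ventricular muscle, 4 erythroid or 5 mesothelial markers passed. Of 6 adipocyte markers tested 1 rose, Cidea, and the other 5 were lower without passing (median of the list -1.06). No marker of these lists was at 0 in every library, and the part of these cells in the results above was not tested.

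The second comparison set the hearts of streptozotocin mice given spermine against those of streptozotocin mice without it. Angpt1 rose 1.76-fold and Vegfa 1.29-fold in SPM compared to DCM, and Vegfb fell 1.26-fold, while Apln and Aplnr, still far below the CK level, did not pass. Thus 3 of the 9 genes passed, against 16.6% of the 14493 genes tested, and Angpt1 was the 1 DEG, against 3.59%. The 2 groups did not overlap in 3 of the 9 genes, against 39.2% of all genes, and again in 3 without SPM replicate 2, against 41.4%. None of these calls held without SPM replicate 2, where 0 of the 9 genes and 0.486% of 14828 genes passed in edgeR, although 4 of the 9 and 22.0% of all genes had an unadjusted p under 0.05.

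Angpt1, the agonist of the Tek receptor, had 28.6, 29.0 and 30.5 CPM in SPM, and 14.9, 13.4 and 21.6 CPM in DCM. All SPM libraries were above all DCM and all CK libraries. The log2 fold change was 0.82 (SE 0.15, 95% interval 0.49 to 1.15, adjusted p = 0.0120), and without SPM replicate 2 it was 0.83 with an adjusted p of 0.0520. The call was also lost without DCM replicate 1 or DCM replicate 2, at 0.73 and 0.69. Its GC content, at 39.3%, was the lowest of the 9 genes, and across all genes the log2 fold change of this comparison went down with GC content (Spearman rho -0.50 over 14484 genes, which are not independent). With a GC offset in the fit, the log2 fold change of Angpt1 was 0.47 (adjusted p = 0.0569).

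Vegfa had 207.5, 174.4 and 150.9 CPM in SPM and at most 146.3 CPM in DCM. The 3 SPM libraries spread widely but stayed above the DCM libraries, with a log2 fold change of 0.37 (SE 0.11, adjusted p = 0.0407). The adjusted p was 0.113 without SPM replicate 2 and over 0.05 in 5 of the 6 fits with a library left out, all but that without SPM replicate 3, and with the GC offset it was 0.0618 at a log2 fold change of 0.39. Vegfb had 228.8, 226.8 and 222.3 CPM in SPM, a narrow range below all DCM libraries, and a log2 fold change of -0.33 (SE 0.079, adjusted p = 0.0238). Without SPM replicate 2 its adjusted p was 0.110, and the call was lost without DCM replicate 1 or 2 as well. With a GC content of 62.6%, the highest of the 9, its log2 fold change under the GC offset was -0.09 (adjusted p = 0.474).

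The other 6 genes did not pass. Aplnr had 9.36, 13.5 and 17.3 CPM in SPM, overlapping with DCM, and differed by -0.55 on the log2 scale (95% interval -1.02 to -0.08, adjusted p = 0.0949), but it passed in DESeq2 (adjusted p = 0.0378), without the low-count filter (0.0496) and without SPM replicate 3 (0.0150). Apln had 4.28, 6.82 and 6.97 CPM, with replicate 1 below every DCM library and the others among them, and its interval of -0.52 to 0.30 on the log2 scale (adjusted p = 0.710) does not reach the size of its fall against CK. For Kdr the interval was -0.16 to 0.20 (adjusted p = 0.880). Tek, at 111.8, 125.0 and 131.8 CPM, differed by 0.13 (adjusted p = 0.231), Vegfc, at 8.44, 10.5 and 12.4 CPM, by -0.25 (adjusted p = 0.229) and Flt1, at 285.9, 272.2 and 258.1 CPM, by 0.09 (adjusted p = 0.428). Beside these values, 3 of the 11 endothelial markers fell, the tight junction gene Cldn5 by 1.15, Robo4 by 0.33 and Tie1 by 0.29, and none rose. Lyve1, of 5 lymphatic markers, rose by 0.68. Of 9 macrophage markers 6 rose, of 4 erythroid markers 4 fell, of 8 pericyte markers 2 fell and of 8 fibroblast markers 2 rose. The atrial and adipocyte lists had 1 rise each and the ventricular list 1 fall. With the GC offset 3 macrophage markers rose, Cldn5 fell, Lyve1 rose and no other marker passed. Without SPM replicate 2, 1 endothelial and 1 lymphatic marker passed and no marker of the other lists did, and the part of these cells was not tested.

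The third comparison set the spermine-treated diabetic hearts against the controls, whose libraries the first comparison also used. Aplnr was 7.79-fold lower in SPM than in CK (log2 fold change -2.96, SE 0.24, adjusted p = 0.000374) and ranked 14 from the lowest of 14574 genes. Apln was 2.87-fold lower (-1.52, SE 0.17, adjusted p = 0.00109) and Vegfc 1.57-fold lower (-0.65, SE 0.14, adjusted p = 0.0100). Angpt1 was 1.62-fold higher (0.70, SE 0.17, adjusted p = 0.0195) and Flt1 1.21-fold higher (0.28, SE 0.059, adjusted p = 0.0111). Across all genes the log2 fold change of this comparison went down with GC content too (Spearman rho -0.37 over 14564 genes). Over the 9 other settings that kept all libraries, that of Angpt1 was 0.39 to 0.73. In all, 5 of the 9 genes passed, against 27.4% of the genes tested, 4 were DEGs, against 9.21%, and 7 did not overlap between the groups, against 46.3% (7 against 48.1% without SPM replicate 2). With the GC offset, 3 were DEGs. Without SPM replicate 2, Aplnr, Apln and Vegfc passed, 3 of the 9 against 10.4% of all genes, and Angpt1 and Flt1 did not, with adjusted p of 0.0563 and 0.0625. Tek at -0.20 (adjusted p = 0.0596), Kdr at -0.22 (adjusted p = 0.0737), Vegfb at -0.14 (adjusted p = 0.0920) and Vegfa at 0.17 (adjusted p = 0.294) did not pass. Tek passed in 5 of 9 other settings that kept all libraries, among them DESeq2 (0.0456) and the GC offset (0.0341), Kdr in 3 of 9, among them DESeq2 (0.0441), and Vegfb in 2 of 9, both with limma on log2 FPKM (0.0169 each).

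Ratios of FPKM within a library set a ligand against its receptor. The FPKM of Apln was 0.202 ± 0.042 of that of Aplnr in CK, 0.407 ± 0.107 in DCM and 0.535 ± 0.061 in SPM (SD, n = 3; 0.505 without SPM replicate 2). All 6 diabetic libraries were above the CK libraries, since the receptor transcript dropped further than that of the ligand. The ratio of Kdr to Flt1, the 2 VEGF receptor genes, was 2.14 ± 0.18 in CK, 1.61 ± 0.10 in DCM and 1.53 ± 0.20 in SPM (1.53 without SPM replicate 2), and the CK libraries lay above all others. This ratio was not among those planned. The ratio of Vegfa to Flt1 was 1.41 ± 0.18 in CK, 1.08 ± 0.11 in DCM and 1.30 ± 0.14 in SPM (1.31 without SPM replicate 2), where the DCM libraries lay below the CK libraries and the SPM libraries overlapped with both.

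Of 13 other genes of these 3 systems, 4 passed in DCM compared to CK, against 10.4% of all genes, and 4 in SPM compared to DCM, against 16.6%. Of 5 further VEGF ligands and co-receptors, Nrp2, a co-receptor for VEGFC and semaphorins, fell in DCM compared to CK, from 98.5 ± 9.77 to 63.9 ± 1.46 CPM (log2 fold change -0.62, adjusted p = 0.000444). Nrp1 alone rose in SPM compared to DCM, by 0.25 (adjusted p = 0.0482), and not without SPM replicate 2. Flt4, the receptor gene for Vegfc, was at 48.2 ± 3.43, 53.4 ± 3.74 and 52.2 ± 3.05 CPM in CK, DCM and SPM and passed in no comparison. Of 5 further genes of the angiopoietin system, Tie1 fell in DCM, and Adam17, a protease that sheds membrane receptors, fell from 40.6 ± 0.94 to 25.7 ± 1.81 CPM (-0.66, adjusted p = 0.000334) and was 32.6 ± 0.69 CPM in SPM, a rise of 0.35 (adjusted p = 0.0183). Of 3 further apelin genes, Furin, a protease that processes precursor peptides, rose by 0.31 in DCM and fell by 0.33 in SPM.

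Downstream of the VEGF receptors, 1 of 15 signalling genes rose in DCM and none fell, while 10.4% of all genes passed. It was Pik3r1, the regulatory subunit of phosphoinositide 3-kinase, which went from 73.3 ± 11.1 to 141.7 ± 25.8 CPM (log2 fold change 0.95, adjusted p = 0.00061). In SPM compared to DCM, 1 of the 15 rose, Prkca by 0.29, and 1 fell, Src by 0.55, while 16.6% of all genes passed.

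Upstream, genes of oxygen sensing and of the regulators of Vegfa were read from lists. Over all genes, 10.4% passed in DCM compared to CK and 16.6% in SPM compared to DCM. Of 9 oxygen-sensing genes listed, 8 were counted, and Hif1a was not among the 8. Of the 8, Hif3a, a hypoxia-inducible factor subunit, rose in DCM from 2.67 ± 0.80 to 9.77 ± 1.21 CPM (1.88, adjusted p = 0.000189), and 7 did not pass. Of 11 targets of hypoxia-inducible factors tested, 5 rose and 2 fell. Ddit4, a stress-induced inhibitor of growth signalling, rose by 0.94 and Bnip3, a mitophagy receptor, by 0.87, whereas P4ha1, a collagen-modifying enzyme, fell by 0.59. The median of these targets was 0.25, beside -0.0025 over all genes. In SPM compared to DCM, Bnip3 fell by 0.42 and Ndrg1 by 0.26, and none rose. Of 4 genes of the PGC-1 and ERR group, coactivators and nuclear receptors of mitochondrial genes that can also raise Vegfa, Ppargc1a rose in DCM by 0.37 (adjusted p = 0.0178) and in SPM by a further 0.41 (adjusted p = 0.0150), being 56.5 ± 5.37, 72.7 ± 4.72 and 96.4 ± 8.52 CPM in the order CK, DCM, SPM. Ppargc1b rose by 0.47 in DCM, and Esrra fell by 0.23 in SPM compared to DCM.

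Over 3 lists of vessel sprouting, 9 of 30 genes passed in DCM compared to CK, against 10.4% of all genes, and 9 of 30 in SPM compared to DCM, against 16.6%. Of 10 Notch genes, the target gene Hey2 rose by 0.57 and the ligand gene Dll1 fell by 0.56. In SPM compared to DCM, 5 of the 10 fell and none rose, among them Hey1 by 0.63, Notch4 by 0.39 and the endothelial ligand gene Dll4 by 0.39. Of 8 tip cell genes, Igfbp3 rose by 0.75 in DCM, and the chemokine receptor gene Cxcr4 fell by 0.51 and Lama4, a laminin of vessel walls, by 0.36. In SPM compared to DCM 1 of the 8 fell, Pdgfb, by 0.29. Of 12 endothelial transcription factors, Sox7 fell by 0.64, Ets1 by 0.62 and Erg by 0.27 in DCM, and Gata2 rose by 0.35. In SPM compared to DCM the flow-responsive genes Klf4 and Klf2 fell by 0.54 and 0.50 and Foxc1 rose by 0.37.

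Of 12 inhibitors of angiogenesis, 2 rose and 1 fell in DCM compared to CK, while 10.4% of all genes passed. Thbs2, a thrombospondin, rose in DCM from 49.8 ± 4.55 to 100.2 ± 5.58 CPM (log2 fold change 1.01, adjusted p = 1.93e-05) and Adamts1 rose by 0.53. Vash1, which endothelium makes as a brake on its own growth, fell from 26.2 ± 2.40 to 11.8 ± 1.80 CPM (-1.15, adjusted p = 0.000115). In SPM compared to DCM, 1 of the 12 rose and 1 fell, while 16.6% of all genes passed. Adamts8 rose by 2.21 at a low level, from 0.660 ± 0.137 to 3.05 ± 1.38 CPM, and Serpinf1 fell by 0.28. Of 9 other angiogenic growth factors, Angptl4, an inhibitor of lipoprotein lipase, fell in DCM by 0.74 (adjusted p = 0.00103) and again in SPM by 0.94 (adjusted p = 0.0184), from 126.3 ± 17.2 to 75.3 ± 8.99 and 39.4 ± 13.6 CPM. Without SPM replicate 2, no gene of the 12 pathway lists passed in SPM compared to DCM. With the GC offset, 4 genes of these lists passed there, namely Bnip3 (-0.71), Foxc1 (0.50), Adamts8 (2.36) and Angptl4 (-0.91), and the other calls named above for SPM compared to DCM were lost.

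**Figure D4:**
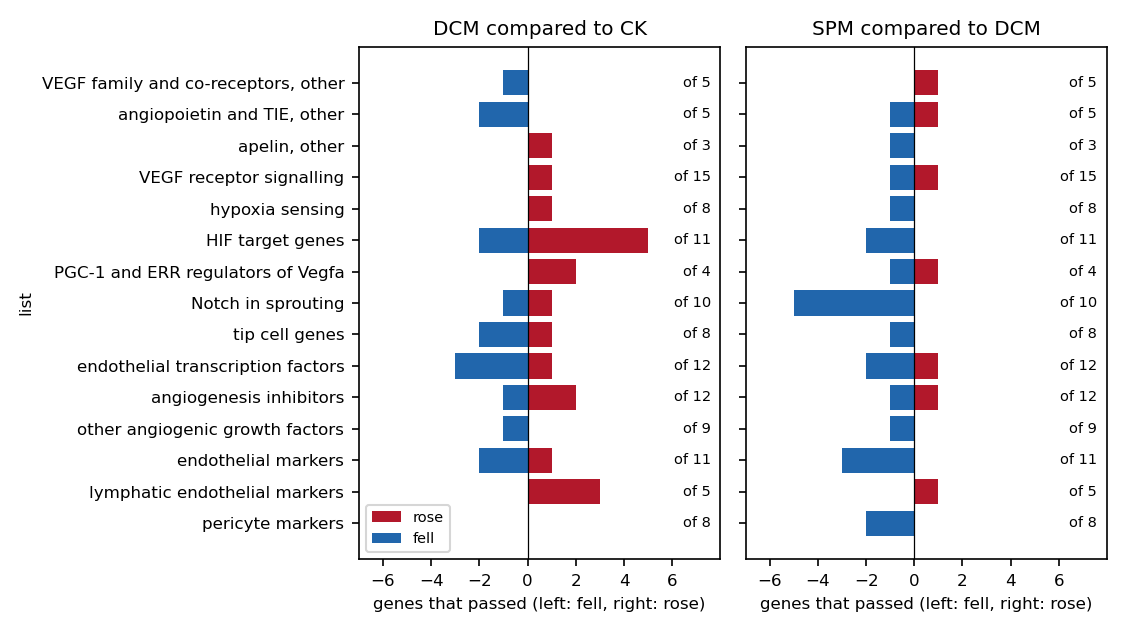
Number of genes of each list (rows) that passed the test, with falls to the left and rises to the right of 0, in DCM against CK (left) and in SPM against DCM (right); the number tested stands at the right. Targets of hypoxia-inducible factors have 5 rises in DCM, and Notch genes have 5 falls in SPM compared to DCM, of which 0 pass without SPM replicate 2 or with the GC offset.

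Finally, the genes whose level followed each of the 4 DEGs most closely were found over the 9 libraries, by Pearson's r on log2 CPM among 9996 genes of at least 5 CPM. For Aplnr they were Sparc, a matricellular protein gene (r = 0.99), Kctd17 (r = 0.99) and the homeobox gene Meox1 (r = 0.99). For Apln they were Hfe2, which is hemojuvelin, and the collagen genes Col15a1 and Col6a3 (r = 0.99 for each). The group means of Sparc for CK, DCM and SPM were 810.8, 403.8 and 358.2 CPM, and those of Col15a1 were 162.1, 58.7 and 51.8 CPM. Apln and Aplnr had an r of 0.97 with each other, which was rank 35 for Apln and rank 36 for Aplnr. For Vegfc they were Sema6a, the mitochondrial carrier gene Ucp3 (r = 0.997 and 0.996) and Slc35c2 (r = 0.987), and for Angpt1 they were Nkapd1, Eif1ax and Ralgapa1 (r = 0.99 for each). Without SPM replicate 2, the 3 genes were the same for Aplnr and Vegfc, and 1 was replaced for Angpt1, by Prkaa2, and 2 for Apln, by Col4a1 and Col1a1. The points share libraries and fall into 3 groups, and no p is given.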

How the data were processed

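Heart RNA was measured in 9 libraries, 3 each of CK, DCM and SPM, grouped by their deposited labels. The authors deposited raw read counts per gene and FPKM for 22851 genes; fastp 0.18.0 is named in the study's methods, and Bowtie 0.12.2 and builds mm8 and mm9 in the submitters' processing notes, but the build behind the counts was not settled. Gene lengths were worked out from the deposited counts, totals and FPKM. They were the same in every library, and no outside lengths were used to check them. The table's gene IDs were named with GENCODE M21 (GRCm38) for 22820 genes, and the 31 others were kept unnamed.

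Counts were tested with edgeR 4.0.16 (quasi-likelihood, filterByExpr, TMM) in R 4.3.3, 2 groups at a time, with Benjamini-Hochberg adjustment over all genes tested. The scripts were tested on simulated data. Alternatives used DESeq2 1.42.0 (the authors' tool), limma 3.58.1 on log2(FPKM + 0.1) and log2(FPKM + 1), other normalization and filters, a fit of all 9 libraries, a replicate block, a GC offset and each library left out. Each gene list was described by its counts and median. The genes described and the lists were chosen with earlier results of these data known. Named were, of each list, at most the 3 genes with the largest changes. They were taken from those that passed in DCM compared to CK or SPM compared to DCM. Of the endothelial, lymphatic and fibroblast lists the 3 most abundant were named too, but not of the other cell type lists. Of each DEG, the 3 genes with the highest correlation were named. Adamts1, Dll4, Erg, Foxc1, Gata2, Klf2, Ndrg1, Notch4, Pdgfb, Robo4 and Serpinf1 fall outside this rule and were chosen after their values were seen, as were the genes most alike without SPM replicate 2. Library depth was 29901300 to 39718680 counts, and intervals cover the spread between libraries only.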

Additional observations from a re-analysis of the deposited data

How the results depend on the processing

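Of 405 fold changes of the 9 genes recomputed under other settings, 354 kept their direction and their side of the threshold, 25 were no longer past it, 19 came past it and 7 changed sign. The falls of Aplnr, Apln and Tek in DCM compared to CK passed under every setting that was run, with log2 fold changes of -2.61 to -2.19, -1.47 to -1.37 and -0.34 to -0.32 when each library was left out.

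The number of DEGs among the 9 was 2, 1 and 4 in DCM compared to CK, SPM compared to DCM and SPM compared to CK. Without the 1.5-fold limit it was 4, 3 and 5. With the GC content offset it was 0 in SPM compared to DCM and 3 in SPM compared to CK. In SPM compared to DCM with 1 library left out it was 0 to 2: 0 without DCM replicate 1, DCM replicate 2 or SPM replicate 2 and 2 without SPM replicate 3. The sign changed for Angpt1 in DCM compared to CK (-0.344 to 0.0268 with 1 library left out), for Kdr (-0.0443 to 0.0723) and Apln (-0.232 to 0.0823) in SPM compared to DCM, and for Vegfb in SPM compared to CK (0.0712 with the GC content offset). None of these had passed, and the cause was not tested. Those that came past the threshold were Tek (6), Kdr (5) and Vegfb (2) in SPM compared to CK, Kdr (3) in DCM compared to CK and Aplnr (3) in SPM compared to DCM. In normalized CPM, which leaves out gene length, the ratio of Vegfa to Flt1 was 0.704 in CK, 0.542 in DCM and 0.650 in SPM and that of Apln to Aplnr 0.172, 0.346 and 0.455, with the same order of groups.

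Replicate numbers did not pair the libraries: deviations from the group means correlated by -0.07 to 0.20 for the 9 pairs with the same number and by -0.28 to 0.22 for the 18 others. With the replicate block, the number of DEGs was 2, 1 and 4, and the one call lost was that of Vegfc in DCM compared to CK (-0.40, adjusted p = 0.0504). With 3 libraries a group, Dixon's test of single libraries was not run.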
